A study of Mus musculus with 10 samples.

Results

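Chemokine receptor genes were examined in haematopoietic stem cells (HSCs) of the mouse that carried the adhesion molecule Jam2 on their surface and in HSCs that did not. The set held 9 genes, Ccr1, Ccr2, Ccr3, Ccr8, Ccr9, Cxcr3, Cxcr6, Cx3cr1 and Xcr1, which were given by name. Each had 1 row among the 2721 genes that could be named here, out of a table of 41345 rows, and 6 further chemokine receptors with a row are described after them. The cells came from 5 male wildtype mice of the strain labelled C57BL/6 SJL. In both groups they were sorted as lineage-negative cells with c-Kit, Sca-1 and CD150 and without CD48 on their surface, and the groups are labelled by the presence or absence of surface Jam2. Each group was measured on 5 single-colour arrays, numbered 1, 2, 4, 5 and 6 in both. No label ties a number to an animal, so the p-values measure the spread between these arrays. With 5 mice for both groups, some arrays must share animals, and the labels do not say which. Values are on a log2 scale, on which a difference of 1 is a 2-fold change.

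Chemokine receptors are membrane-spanning receptors that couple to inhibitory G proteins and steer the migration of blood cells along gradients of small secreted proteins, the chemokines. They are named for the cysteine pattern of the chemokines they bind, CC, CXC, CX3C or XC. In blood stem cells the best known is Cxcr4, the receptor that holds the cells in the marrow niche; it was not analysed here, and the 9 receptors described here are known mainly from mature leukocytes.

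The gene names are inferred. In the deposited table the row identifiers (IDs) are displaced from their values, and for the last 5562 IDs the k-th ID was given the values of the k-th row. With this placement, 26 rows of ribosomal proteins, which all cells make in abundance, had a median level of 12.09, and 137 rows of olfactory and vomeronasal receptors, sensory genes not known in blood cells, had a median of 3.63. With the IDs as deposited the medians were 5.92 and 5.17. The displaced rows also followed the sex of the mice: the Y-linked genes Eif2s3y, Kdm5d and Uty had medians of 8.85, 7.67 and 7.98 over the 10 arrays, and Xist, which silences an X chromosome in female cells, had 4.62. As deposited, Xist had 9.37, Eif2s3y 2.93 and Uty 3.79. Kdm5d had 8.59 as deposited, so this gene does not separate the placements. Where 2 rows held the same values throughout and each had 1 symbol, the symbols were equal in 37 of 37 pairs after displacement and in 0 of 12 as deposited.

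**Figure D1:**
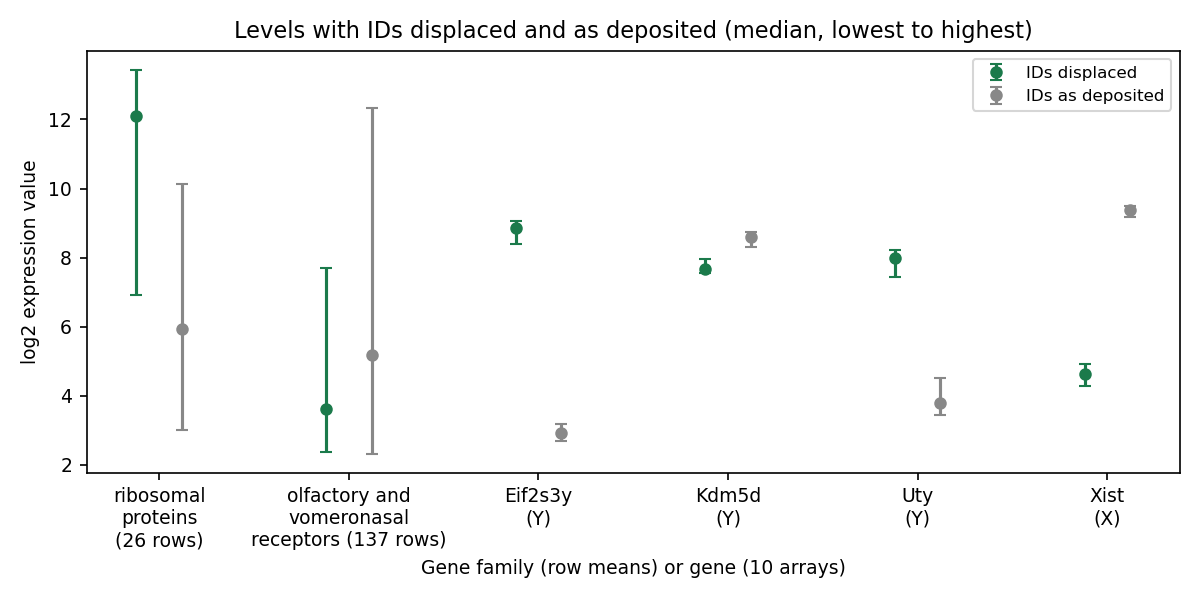
Log2 expression values (vertical axis) of gene families and sex-linked genes when IDs are displaced (green) and as deposited (grey); points are medians, and bars run from the lowest to the highest row mean for families and from the lowest to the highest array for genes. With IDs displaced, ribosomal proteins (median 12.09) lay far above olfactory and vomeronasal receptors (median 3.63), and Xist (4.62) lay below all 3 Y-linked genes.

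Array medians ran from 5.96 to 6.05. Jam2+ replicate 1 and Jam2- replicate 6 correlated least with the other arrays, with a mean r across rows of 0.970 and 0.968, so results are also given without them. Stem cell markers were present: of 6 measured genes of an HSC list, 4 lay above the background limit described below on all 10 arrays, Fli1, Robo4, Esam and Neo1. Of all named genes, 46.7% did. The brightest of the 6, the transcription factor Fli1, had means of 11.18 ± 0.16 and 11.31 ± 0.13 (SD, n = 5 each) in Jam2+ and Jam2- HSCs, and Robo4, an endothelial-type guidance receptor, had 9.61 ± 0.20 and 9.54 ± 0.18. Ets1 was above the limit on 9 arrays and Jam3 on 8. Jam3 was the 1 gene of the 6 with an unadjusted limma p under 0.05 (0.0382), against 4.23% of the named genes. Its difference, Jam2+ minus Jam2-, was -0.25 (limma adjusted p = 0.99992). Jam2 itself, the gene of the sort, is not among the genes named here, so the sort could not be checked on it.

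Of the 9 receptor genes, 0 differed between Jam2+ and Jam2- HSCs (limma, Benjamini-Hochberg adjustment over all 41345 rows, threshold 0.05), and 0% of all rows passed. Every one of the 9 had a limma adjusted p of 0.99992. At an unadjusted p under 0.05 there were 0 of 9 in limma, against 4.08% of all rows. The groups overlapped for all 9 genes, whereas they were fully separated in 0.747% of all rows. Differences, as Jam2+ minus Jam2-, ran from -0.04 for Ccr1 to 0.15 for Ccr8, with a median of 0.04 beside 0.01 over all rows, and 6 of the 9 were above 0, where 53.1% of all rows were. Single arrays moved that median: it was 0.0015 without Jam2+ replicate 4, 0.083 without Jam2+ replicate 5, 0.018 without Jam2- replicate 4 and 0.097 without Jam2- replicate 6, and 0.014 when each array was centred on its median or quantile-normalized. The 95% intervals of all 9 lay inside a 1.5-fold change in either direction, with -0.23 and 0.41 as the outermost bounds. For the 7 genes under the background limit described below, the intervals bound the measured values and not the change in transcript. A p that misses the threshold does not show that the levels were equal. The values come from RNA of sorted cells in bulk, so fewer cells with a transcript and less transcript per cell cannot be told apart.

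**Figure D2:**
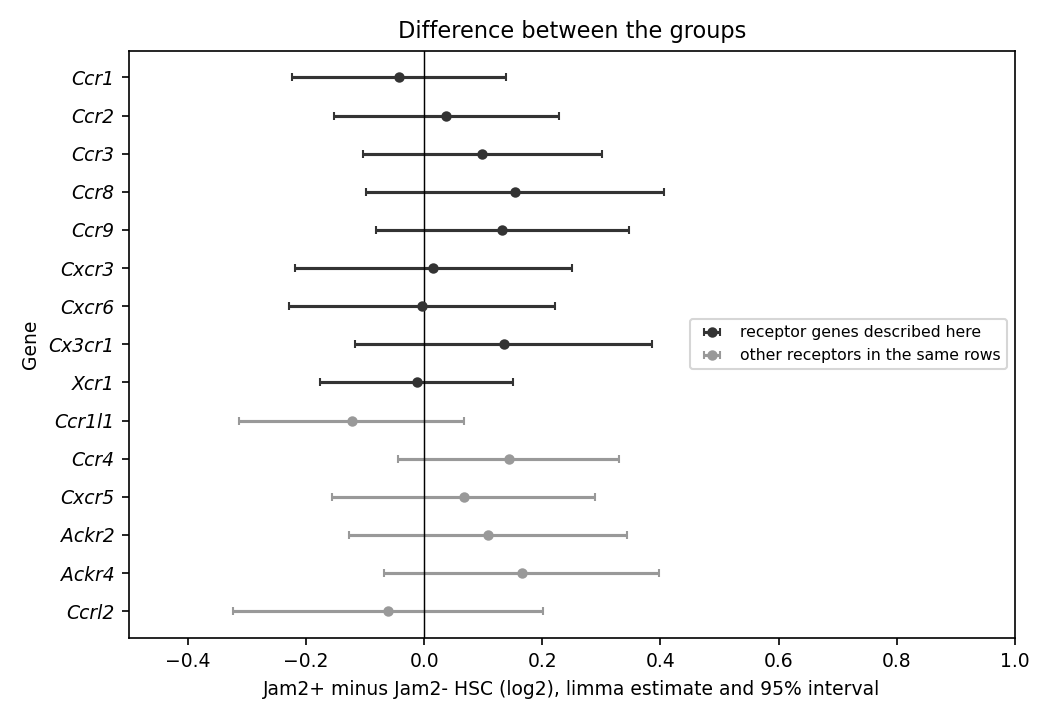
Difference between Jam2+ and Jam2- HSCs in log2 units (horizontal axis) for each gene (vertical axis), as limma's estimate with its 95% interval, 5 arrays per group; black marks the 9 receptors described here and grey 6 further receptors. All 15 intervals include 0, and the widest reach among the 9 is that of Ccr8, from -0.10 to 0.41.

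The files hold no detection calls, so each value was set against the 95th percentile of the 137 olfactory and vomeronasal receptor rows on the same array, which ran from 5.75 to 6.17 and serves here as the background limit. The limit ran from 5.75 to 6.06 on Jam2+ and from 5.97 to 6.17 on Jam2- arrays, and for each number it was higher on the Jam2- array. Of the 9 receptors, 2 lay above it on all 10 arrays, Cx3cr1 and Cxcr3, and 7 lay above it on no array. Of all 2721 named genes, 46.7% were above the limit on all arrays and 38.6% on none. The 7 are called at background below, and a difference in transcripts under the limit could not be detected. Probes differ in how brightly they report a transcript, so no order of abundance between genes is drawn from these levels.

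**Figure D3:**
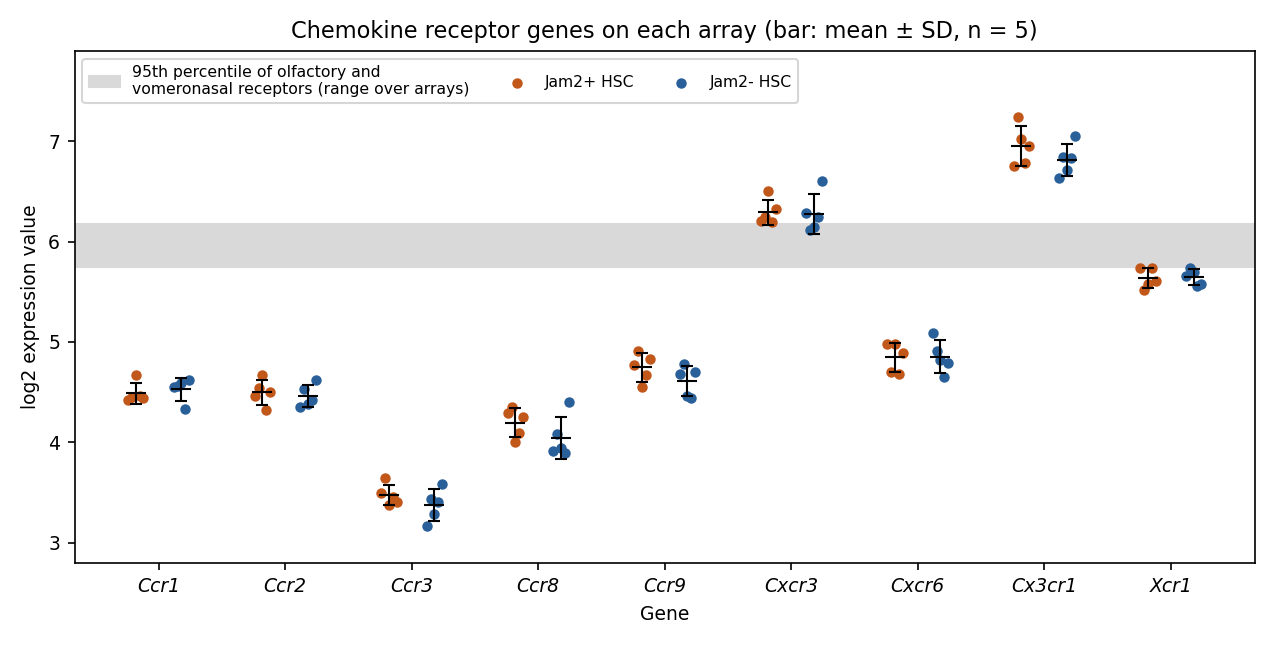
Log2 expression value (vertical axis) of the 9 receptor genes (horizontal axis) on each array, Jam2+ HSCs in orange and Jam2- HSCs in blue, with the mean and SD of 5 arrays; the grey band is the range over arrays of the 95th percentile of olfactory and vomeronasal receptors, 5.75 to 6.17. Cx3cr1 lies above the band on all arrays, Cxcr3 at its upper edge, and the other 7 genes below the limit of their own array.

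Cx3cr1, the receptor for the membrane-bound chemokine fractalkine and a mark of monocytes and microglia, stood clearest of background. In Jam2+ HSCs it had 6.75, 7.24, 7.02, 6.78 and 6.95 on replicates 1, 2, 4, 5 and 6. In Jam2- HSCs it had 6.63, 6.84, 6.71, 6.83 and 7.05 in the same order. The highest value was that of Jam2+ replicate 2 and the lowest that of Jam2- replicate 1, and the groups overlapped. The means were 6.95 ± 0.20 and 6.81 ± 0.16 (SD, n = 5 each), differing by 0.13 (standard error 0.114; limma adjusted p = 0.99992). The exact two-sided permutation p was 0.278; the smallest that 5 arrays against 5 allow is 0.00794. Cx3cr1 exceeded the background limit of its array by 0.52 to 1.24, and 1 of the 137 sensory receptor rows had a higher mean.

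Cxcr3, the receptor of interferon-induced chemokines on activated T cells and NK cells, was the other gene above the limit. Jam2+ HSCs had 6.20, 6.24, 6.50, 6.19 and 6.32 on replicates 1, 2, 4, 5 and 6. Jam2- HSCs had 6.28, 6.11, 6.14, 6.24 and 6.60. The highest of the 10 values was thus that of Jam2- replicate 6, and the remaining Jam2- arrays lay within or just under the Jam2+ range. The groups differed by 0.02 (standard error 0.106; limma adjusted p = 0.99992, exact permutation p = 0.889), and the difference turned to -0.01 when each array was centred on its median or quantile-normalized. The margin over the background limit was narrow, 0.05 to 0.68, and 4 of the 137 sensory receptor rows had a higher mean. Cxcr3 is also the only one of the 9 genes on the X chromosome.

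The 250 bases upstream of the annotated start of these 2 genes are shown because their rows were the ones above background. They come from RefSeq (GRCm38.p6), read 5′ to 3′ on the strand of the gene, at chr9:120068297-120068546 (minus strand) for Cx3cr1 and chrX:101734148-101734397 (minus strand) for Cxcr3. Capitals mark matches, on either strand, to short cores bound by 3 families of blood transcription factors. The core searched for RUNX factors was TGTGGT. That for ETS factors of the PU.1 type was GAGGAA. That for GATA factors was AGATAA. A match on the opposite strand appears as the reverse complement of the core, and no matches overlapped in the windows shown.
Cx3cr1: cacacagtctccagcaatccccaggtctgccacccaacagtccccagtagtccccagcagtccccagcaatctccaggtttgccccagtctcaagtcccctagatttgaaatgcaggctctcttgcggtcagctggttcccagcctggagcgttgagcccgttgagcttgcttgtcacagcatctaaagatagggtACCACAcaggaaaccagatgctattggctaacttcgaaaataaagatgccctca
Cxcr3: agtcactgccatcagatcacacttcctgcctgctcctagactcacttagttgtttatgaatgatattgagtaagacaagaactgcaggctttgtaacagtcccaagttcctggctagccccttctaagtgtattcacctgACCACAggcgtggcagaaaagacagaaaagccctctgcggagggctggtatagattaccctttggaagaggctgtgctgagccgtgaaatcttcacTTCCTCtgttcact
Both windows held 1 RUNX match, and the Cxcr3 window also held 1 ETS match. Over all 9 genes, 4 windows held a RUNX match, 3 an ETS match and 3 a GATA match, and the same letters occurred in 14.0%, 23.3% and 9.99% of 32851 upstream windows of this length. These are matches of letters, not sites of binding.

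The inflammatory CC receptors Ccr1, Ccr2 and Ccr3 were at background on all 10 arrays. Ccr1, a receptor for Ccl3 and Ccl5 on neutrophils and monocytes, had 4.42, 4.45, 4.67, 4.46 and 4.44 in Jam2+ HSCs (replicates 1, 2, 4, 5 and 6) and 4.55, 4.56, 4.59, 4.33 and 4.62 in Jam2- HSCs. Jam2+ replicates 1, 2, 5 and 6 lay between 4.42 and 4.46, and Jam2+ replicate 4 was the highest of all 10. The groups differed by -0.04 (standard error 0.082; limma adjusted p = 0.99992, exact permutation p = 0.548). Ccr2, through which Ccl2 draws monocytes out of the marrow, had 4.46, 4.54, 4.67, 4.32 and 4.50 in Jam2+ and 4.35, 4.53, 4.38, 4.42 and 4.62 in Jam2- HSCs. Its ranges were nearly the same in both groups, and the difference of 0.04 (standard error 0.086, limma adjusted p = 0.99992, exact permutation p = 0.619) was smaller than either SD, 0.13 and 0.11.

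Ccr3, the eotaxin receptor of eosinophils, had 3.50, 3.64, 3.38, 3.46 and 3.41 in Jam2+ HSCs and 3.17, 3.44, 3.29, 3.41 and 3.59 in Jam2- HSCs. Jam2- replicates 1 and 4 were below every Jam2+ array, and Jam2- replicate 6 was above all but 1 of them. The groups differed by 0.10 (standard error 0.092; limma adjusted p = 0.99992, exact permutation p = 0.270). Its row was unremarkable among sensory receptors, 80 of 137 of which had a higher mean.

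The receptors of lymphocyte homing, Ccr8 and Ccr9, showed the differences with the smallest exact p among the 9, and neither passed. Ccr8, which binds Ccl1 and marks regulatory and type 2 helper T cells, had 4.29, 4.35, 4.00, 4.09 and 4.25 in Jam2+ HSCs and 3.91, 4.08, 3.94, 3.89 and 4.40 in Jam2- HSCs. Jam2- replicates 1, 4 and 5 lay below every Jam2+ array, while Jam2- replicate 6 lay above every Jam2+ array. The means were 4.20 ± 0.14 and 4.05 ± 0.21 (SD, n = 5 each), differing by 0.15 (standard error 0.114; limma adjusted p = 0.99992, exact permutation p = 0.214), or a 1.11-fold ratio with an interval from 0.934 to 1.33. Without Jam2- replicate 6 the difference was 0.24 and the unadjusted limma p 0.0272, and the adjusted p still missed the threshold.

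Ccr9, the Ccl25 receptor that guides progenitors to the thymus and lymphocytes to the gut, is known in early lymphoid progenitors. It had 4.77, 4.91, 4.55, 4.67 and 4.83 in Jam2+ HSCs and 4.68, 4.78, 4.46, 4.44 and 4.70 in Jam2- HSCs. Jam2+ replicates 2 and 6 were above every Jam2- array, Jam2- replicates 4 and 5 were below every Jam2+ array, and the rest overlapped. The groups differed by 0.13 (standard error 0.097, limma adjusted p = 0.99992, exact permutation p = 0.206), and all 10 values were at background. Between arrays of the same number, Jam2+ was higher in 5 of 5 pairs, beside 2 to 4 of 5 for each other gene of the set. With the number as a block, the Ccr9 standard error was 0.071 and the limma adjusted p 0.997.

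Cxcr6 and Xcr1 had the smallest differences of the 9 genes. Cxcr6, the Cxcl16 receptor of natural killer T cells and tissue-resident lymphocytes, had 4.98, 4.70, 4.98, 4.68 and 4.89 in Jam2+ and 5.09, 4.91, 4.82, 4.65 and 4.79 in Jam2- HSCs. Jam2- HSCs held both the highest and the lowest value, on replicates 1 and 5. The groups differed by -0.0035 (standard error 0.102), with an interval from -0.23 to 0.22 (limma adjusted p = 0.99992, exact permutation p = 0.952). Xcr1, the receptor of cross-presenting dendritic cells, had 5.74, 5.52, 5.58, 5.74 and 5.61 in Jam2+ and 5.66, 5.74, 5.70, 5.56 and 5.58 in Jam2- HSCs. Its 10 values spanned 0.23, the narrowest range of the 9 genes, and the difference was -0.01 with an interval from -0.18 to 0.15 (limma adjusted p = 0.99992, exact permutation p = 0.817). Xcr1 came close to the background limit, staying 0.01 below it on the nearest array.

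Across the set, Jam2- replicate 6, an array that stood apart from the rest, had the highest Jam2- value in 6 of the 9 genes, and Jam2+ replicate 2 had the highest Jam2+ value in 4. Without Jam2+ replicate 1 and Jam2- replicate 6, all 9 differences kept their sign and ran from -0.05 to 0.24, with 0 of 9 at an unadjusted limma p under 0.05 and a smallest limma adjusted p of 0.865. Cx3cr1 then differed by 0.24 with a standard error of 0.110, and Ccr8 by 0.22 with a standard error of 0.097. The SD over all 10 arrays had a median of 0.15 for the 9 genes and 0.19 for all rows.

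In the RefSeq annotation (GRCm38.p6), 8 of the 9 are on chromosome 9 and 1 on X. Most genes that could be named lie there too: of 2664 matched in RefSeq, 1254 are on chromosome 9 and 899 on X. Receptors outside the named rows were left out, so this placement is largely set by which genes could be named. From Ccr9 to Ccr2, 7 of 8 consecutive protein-coding genes are chemokine receptors, 6 of them in the set, with Fyco1 as the exception. Fyco1, an adaptor of autophagosome transport, and Lztfl1, the neighbour on the other side of Ccr9, were chosen for description after their values had been seen. Fyco1 had means of 8.57 ± 0.20 and 8.52 ± 0.11 in Jam2+ and Jam2- HSCs, and Lztfl1 had 7.55 ± 0.23 and 7.71 ± 0.17 (SD, n = 5 each). Fyco1 and Lztfl1 were above the background limit on all arrays, as were 46.7% of all named genes, while the 6 genes of the set in the run were below it on all. Of the other neighbours examined, Slc25a38 was above the limit on all arrays and Xirp1 on 5 of 10. The 9 rows are therefore not independent in position, and Ccr1, Ccr3 and the copy Ccr1l1 are close relatives whose probe sequences were not analysed here.

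A list of 21 further chemokine receptor symbols had 6 genes measured, and 0 of 6 differed in limma (0 at an unadjusted p under 0.05). Ccrl2, a receptor-like protein that presents chemerin rather than signalling itself, was above background on all arrays. It had 7.98, 7.62, 7.52, 7.46 and 7.75 in Jam2+ and 7.84, 7.92, 7.70, 7.46 and 7.71 in Jam2- HSCs, differing by -0.06 (standard error 0.119; limma adjusted p = 0.99992). Ackr2, a scavenger of inflammatory CC chemokines, was also above background on all arrays. It had 6.23, 6.34, 6.76, 6.48 and 6.45 in Jam2+ and 6.27, 6.29, 6.22, 6.39 and 6.54 in Jam2- HSCs, differing by 0.11 (standard error 0.107). Cxcr5, the B-cell follicle receptor, differed by 0.07 and passed the limit on 2 of 10 arrays, Jam2+ replicates 4 and 5, where the limit was lowest. Its highest value, 6.04 on Jam2- replicate 5, was under that array's limit of 6.17. Ccr4, a receptor of skin-homing and regulatory T cells, the scavenger Ackr4 and Ccr1l1 were at background on all arrays and differed by 0.14, 0.17 and -0.12. The median difference of the 6 was 0.09, or 0.032 without Jam2+ replicate 4, and the groups overlapped for each.

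Genes that carry the signal of chemokine receptors were measured in larger part above background. Of a list of 123 symbols, 18 had a row here, 14 of them above the limit on all arrays, and 0 of 18 passed in limma. The 18 include Foxp3, a T cell marker rather than a carrier of this signal, which was at background on all arrays. It is kept in the counts and the median given for the list. Gnai2, the main inhibitory G-protein subunit of leukocytes, had 10.42 ± 0.10 in Jam2+ and 10.44 ± 0.07 in Jam2- HSCs (SD, n = 5 each), a difference of -0.02. Rhoa, the small GTPase of cell contraction, had 11.19 ± 0.17 and 11.25 ± 0.18 (SD, n = 5 each), and Was, which nucleates actin branches in blood cells, had 9.03 ± 0.14 and 8.95 ± 0.15 (SD, n = 5 each). The intervals of these 3 differences ran from -0.18 to 0.14 for Gnai2, from -0.30 to 0.19 for Rhoa and from -0.13 to 0.30 for Was.

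The list held 1 gene with an unadjusted limma p under 0.05, Rap1b, against 4.23% of the named genes. Rap1b, a small GTPase that activates integrins, had 7.30, 7.83, 7.26, 8.02 and 7.65 in Jam2+ and 8.05, 7.87, 8.14, 7.94 and 8.24 in Jam2- HSCs. All but 1 of the Jam2+ arrays lay below every Jam2- array. The groups differed by -0.44 (standard error 0.151; limma adjusted p = 0.99992). Its ID lies among the last of the table, although RefSeq places Rap1b on chromosome 10, so whether the row reports that locus or a copy was not tested. After Rap1b, the genes with the smallest p among those lower in Jam2+ HSCs were Gnb5, Map2k1 and Ikbkg, with differences of -0.28, -0.20 and -0.18. Among those higher in Jam2+ HSCs they were Pak3, Prkx, Was and Rgs2, with differences of 0.14, 0.17, 0.08 and 0.09. The ID of Rgs2, which RefSeq places on chromosome 1, also lies among the last, with the same limit as for Rap1b. The median difference over the 18 genes was -0.07, beside 0.01 over all rows, with 7 above 0 and 11 below. It was 0.0036 without Jam2+ replicate 1, one of the arrays that stand apart, and -0.017 without Jam2- replicate 2.

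Markers of mature cells that carry these receptors were examined in the same arrays. All 4 measured monocyte, macrophage and dendritic cell markers (Cybb, Irf8, Tlr7 and Tlr8) were below the background limit on all 10 arrays, as were 7 of 8 T cell and NK cell markers, among them Cd3d, Cd3e, Cd3g and Foxp3, with Thy1, which mouse stem cells also carry, above it. The ID of Irf8 lies among the last of the table, like that of Rap1b, so which locus its row reports was not tested. Among 3 B cell, 2 mast cell, basophil and eosinophil and 2 erythroid and megakaryocyte markers, Btk, Gata1 and Epor were above the limit on all arrays, and 0 had an unadjusted limma p under 0.05. Gata1 is counted in both of the last lists. Cybb is counted both with the monocyte, macrophage and dendritic cell markers and with the neutrophil genes below. Cxcr5 among the B cell markers and Ccr3 among the mast cell, basophil and eosinophil markers are receptors already described. They add no separate evidence on those cells. Of 5 neutrophil genes measured, 0 passed over all rows, 5 had a higher mean in Jam2- HSCs, and 3 (Ngp, Camp and Ltf) had an unadjusted limma p under 0.05, a count that was 2 or 3 with 1 array left out. Over all rows, 4.08% had an unadjusted limma p under 0.05, and 53.1% had a higher mean in Jam2+ HSCs. Ngp, a granule protein and the brightest of the 5, had 5.57 to 6.02 in Jam2+ and 5.91 to 8.88 in Jam2- HSCs, a difference of -1.56 (standard error 0.488; limma adjusted p = 0.99992). Camp, a granule antimicrobial peptide, had 4.13 to 4.77 and 4.85 to 7.88, a difference of -1.72 (standard error 0.591; limma adjusted p = 0.99992); it is described because it was the 1 gene of the 5 whose groups did not overlap, against 0.747% of all rows. Ltf, which encodes the iron-binding granule protein lactoferrin, had 5.17 to 5.35 in Jam2+ and 5.14 to 7.43 in Jam2- HSCs, its lowest value being that of Jam2- replicate 6, and its difference of -0.77 was -0.42 without Jam2- replicate 5. Mmp8, a granule collagenase, overlapped and differed by -0.13, and Cybb by -0.20. The mean of these 5 genes ran from 5.09 to 5.20 in Jam2+ and from 5.28 to 6.99 in Jam2- arrays, and 0 of 5 were above the limit on all arrays. Camp was highest on Jam2- replicates 2 and 5, at 7.88 and 7.77, where the neutrophil receptor Ccr1 had 4.56 and 4.33. The part of neutrophil RNA in the receptor values was not tested.

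**Figure D4:**
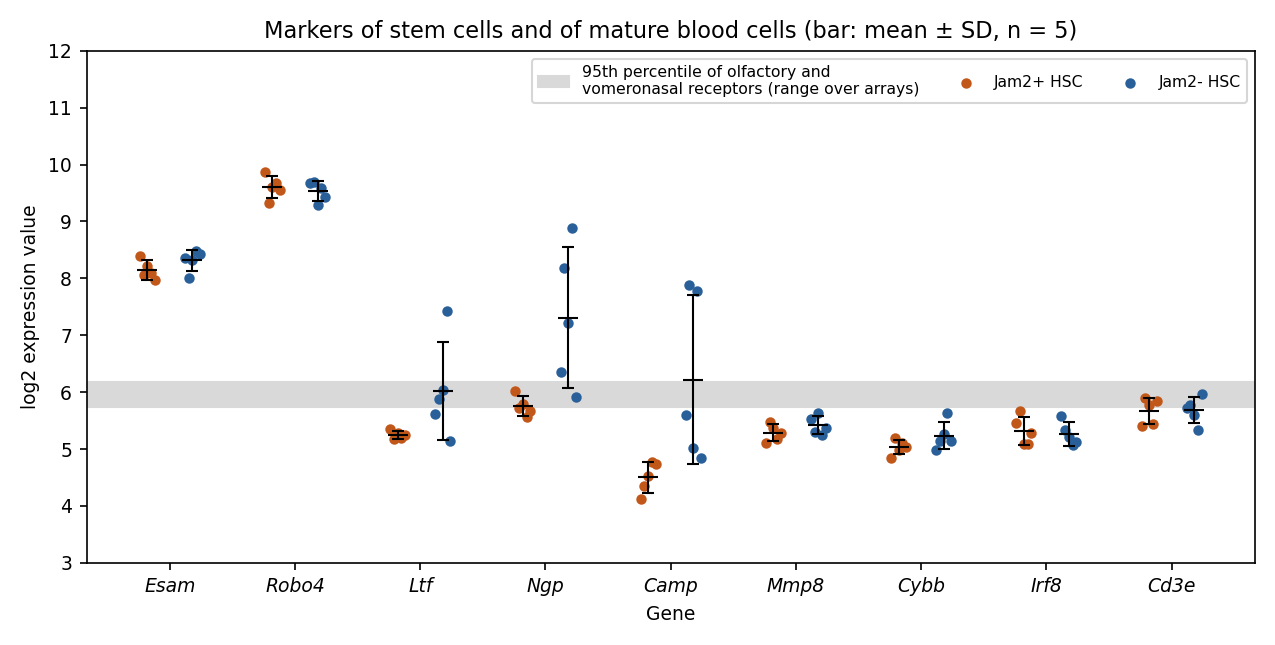
Log2 expression value (vertical axis) of markers (horizontal axis) on each array, with the mean and SD of 5 arrays per group. Shown are the HSC genes Esam and Robo4, the neutrophil genes Ltf, Ngp, Camp and Mmp8, and Irf8 and Cd3e of other mature cells. Cybb, also shown, is counted with both the neutrophil and the monocyte genes. Ltf, Ngp and Camp are spread in Jam2- HSCs (Camp from 4.85 to 7.88), and Irf8 and Cd3e stay below the background limit of their array.

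Cx3cr1 had the widest range of the 9 genes, 0.61 over the 10 arrays, and was compared with the 2712 other named genes by the root-mean-square gap between mean-centred log2 values. The 3 genes nearest to it were Gm13981, Pate2 and Ankrd34c, with gaps of 0.060, 0.068 and 0.069, where the root-mean-square size of the Cx3cr1 profile itself was 0.175. Gm13981 had its highest value on Jam2+ replicate 2, at 7.83, and its lowest on Jam2- replicate 1, at 7.11, as Cx3cr1 did. Pate2 and Ankrd34c were at background on all arrays. The gaps are a description over 10 arrays that share their normalization.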

How the data were processed

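RNA was measured on 10 single-colour Affymetrix-type arrays, 5 per group. The deposited values are log2 values, 1 per row and array; per the submitters' processing notes they were made with the R package oligo. How background was corrected, how arrays were normalized and which version was used is not given in the sources used here. Arrays give no read depth; their number limits the precision. Per the labels, total RNA came from a column kit for small samples.

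IDs were displaced as described, and named through a table of platform annotation: of the 5562 rows, 2872 had 1 symbol, 397 several and 2293 none. The brightest row stood for its gene, which left 2721 genes; 2664 had their Entrez identifier in the RefSeq table (GRCm38.p6), and 0 of these symbols differed. limma's lmFit and eBayes were run on all 41345 rows with group as sole factor, followed by Benjamini-Hochberg adjustment. For single genes, an exact permutation test (two-sided) enumerated 252 assignments of arrays. The procedure was tested on simulated data.

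Genes named were all receptors measured, up to 4 signalling genes per direction by p with Gnai2, Rhoa, Was and Map2k1, and of each marker list up to 4 of the brightest and those with separate groups. Fyco1, Lztfl1, Slc25a38, Xirp1, Foxp3 as a signalling gene, Cybb as a neutrophil gene and the remaining marker genes were added after their values were seen. The members and lists were chosen with earlier results of these data known. Alternatives tried were a replicate block, each array left out, another variance model, array weights, a filter removing the lowest 25% of rows, 2 rescalings, another row summary, adjustment over the named genes alone, a threshold of 0.1 and the IDs as deposited. Versions were limma 3.58.1 in R 4.3.3, and scipy 1.17.1, pandas 2.3.3, numpy 2.4.6 and matplotlib 3.10.9 in Python 3.11.15.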

Additional observations from a re-analysis of the deposited data

Results flagged for a closer look

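Of 30 groups of 5 arrays examined over 15 receptor genes, 2 held an array far from the others, where chance gives about 1.5 (1 in 20). Both concern Ccr1. Jam2+ replicate 4 had 4.67, the nearest array of that group having 4.46, and Jam2- replicate 5 had 4.33, the nearest having 4.55. Both values lie at background.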

How the results depend on the processing

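The 9 differences missed the threshold under all 175 alternatives run for them, with limma adjusted p from 0.865 to 0.99999, and 0 of 9 receptors, 0 of 6 further receptors and 0 of 18 signalling genes were called under all 17 fits other than the reported one. Directions were less stable: 155 of the 175 kept the sign. That count includes settings that leave the difference itself unchanged and so could not turn it. They are the replicate block, the other variance model, the row filter and adjustment over the named genes alone. The other row summary is a further one, since each gene had 1 row. Ccr3 and Ccr8 kept theirs throughout. With IDs as deposited, which gives each gene another row, the differences turned to 0.15 for Ccr1, -0.078 for Ccr9, -0.12 for Cxcr3, 0.093 for Cxcr6, -0.11 for Cx3cr1 and 0.094 for Xcr1. For Cxcr3, centring each array on its median gave -0.0074 and quantile normalization -0.012; for Cxcr6, array weights gave 0.0057. With 1 array left out, the range was -0.09 to -0.02 for Ccr1, -0.0051 to 0.083 for Ccr2 (below 0 without Jam2+ replicate 4), 0.05 to 0.15 for Ccr3, 0.11 to 0.24 for Ccr8, 0.09 to 0.18 for Ccr9, -0.037 to 0.097 for Cxcr3 (below 0 without Jam2+ replicate 4 or Jam2- replicate 2 or 4), -0.054 to 0.057 for Cxcr6 (above 0 without Jam2+ replicate 2 or 5 or Jam2- replicate 1 or 2), 0.06 to 0.19 for Cx3cr1, and -0.038 to 0.017 for Xcr1 (above 0 without Jam2+ replicate 2 or 4 or Jam2- replicate 2). Rows called higher in Jam2+ were 0 to 1 with 1 array left out, the 1 without Jam2+ replicate 6, and rows called lower 0; the cause was not tested. The run without both Jam2+ replicate 1 and Jam2- replicate 6 was chosen after seeing the data. Removing the lowest 25% of rows left 4 of the 9 genes. With the replicate number as a block, 0 of 9 receptors passed, the smallest limma adjusted p was 0.997, and it changed no other call; deviations of same-numbered arrays correlated at -0.020 to 0.114, above 0.1 in 1 of 5 pairs, and for 4 of 10 arrays the best match bore the same number, so the numbers were not taken to pair the arrays. Signal near background limits what 7 of the 9 rows can show.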
